A study of Rattus norvegicus with 16 samples.

Results

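Sevoflurane and propofol both produce general anesthesia, and the comparison made here asked where the transcript changes after one matched, and where they opposed, the changes after the other. It used all 16 arrays of the series (16 of 16) and the 15037 genes that had a named probe set. For each gene and brain region the sevoflurane effect was the log2 signal under sevoflurane minus that under O2, and the propofol effect was the log2 signal under propofol minus that under Intralipos. The difference of effects is the sevoflurane effect minus the propofol effect, and the mean of effects is their average. Each region gave 1 value of each, and the 4 regions took the place of replicates, because every region and treatment had 1 array.

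The animals were male Wistar rats 8 to 10 weeks old, treated for 60 minutes. Sevoflurane, an inhaled agent, was given at 2.4%, and propofol, an intravenous agent, at 36 mg/kg/hr after a bolus of 10 mg/kg. The control of propofol was Intralipos, a 10% lipid emulsion infused in the same way, and the control of sevoflurane was O2 without an anesthetic. All rats, the controls included, breathed 40% oxygen at 6 L/min. The tissue was cut by laser from Nissl-stained frozen sections of the habenula, divided into a lateral (LHb) and a medial part (MHb), and of a pair of hindbrain nuclei, the solitary (Sol) and the medial vestibular one (MVe), and 100 ng of RNA was labelled per array. The labels do not say how many rats went into a sample or whether regions came from the same rats, so arrays of different regions may share animals, which would make the p-values too low.

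Both agents enhance inhibition through GABA-A receptors, and sevoflurane also acts on potassium channels and glutamate receptors. Immediate early genes such as Fos and Egr1 are transcribed within minutes of neuronal firing and are used as marks of it. Sgk1, Ddit4 and Nfkbia belong to the genes that corticosteroid hormones switch on through the glucocorticoid receptor: Sgk1 encodes a kinase that regulates ion channels and transporters, Ddit4 an inhibitor of the mTORC1 growth pathway, and Nfkbia the inhibitor that holds the transcription factor NF-kB in the cytoplasm.

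Most region markers stood highest where their region's name places them, with exceptions. The nicotinic receptor subunit gene Chrnb3 averaged 16.17 on the log2 scale in MHb, 9.78 in LHb and 4.19 in MVe. LHb thus held some signal of MHb markers, with Chrna3 at 14.87 there and 18.52 in MHb. The MHb marker Chrna5 was highest in Sol, at 7.09 against 5.97 in MHb. The serotonin receptor gene Htr2c was highest in LHb, at 16.51 against 14.62 in MVe. The other 2 measured LHb markers were not highest there: Gpr151 averaged 14.04 in LHb and 16.30 in MHb, and Gap43 14.86 in LHb and 15.77 in Sol. The catecholamine synthesis genes Th (11.14) and Dbh (11.03) stood above 10 only in Sol among the 4 regions, and Hoxa2, a hindbrain patterning gene, averaged 10.45 in Sol and 8.60 in MVe against 4.21 in LHb and 3.94 in MHb. Region markers also differed with treatment. In Sol the median difference of effects was -0.76 for solitary nucleus markers (0 of 6 above 0) and -0.81 for Hox genes (1 of 10). For MHb markers in MHb it was -0.16 (3 of 10) and for LHb markers in LHb -0.13 (0 of 3). Their part in the other results was not tested. The mean over all probe sets was 7.20 to 7.21 in the sevoflurane and O2 arrays and 6.97 to 6.99 in the propofol and Intralipos arrays. Both effects are differences within one of these array sets, while O2 and Intralipos levels cannot be compared across them. The sevoflurane and the propofol effect share no array. In tissue pieces like these, fewer cells of a type and less RNA per cell cannot be told apart.

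The results below turn on Sgk1, Ddit4 and Nfkbia, which moved apart, and on Junb, which was higher after both. The 250 bases before each RefSeq start site (assembly GRCr8) are shown so that their promoters can be set side by side. Capitals mark matches to ACGTG, the core of the hypoxia response element, TGACG, from the cyclic AMP response element, and TATAAA, the TATA box. Coordinates are chr1:24807232-24807481 on the minus strand for Sgk1, the outermost of its 3 start sites in the table, chr20:28437038-28437287 on the minus strand for Ddit4, chr6:78597073-78597322 on the minus strand for Nfkbia and chr19:40080876-40081125 on the plus strand for Junb.
Sgk1: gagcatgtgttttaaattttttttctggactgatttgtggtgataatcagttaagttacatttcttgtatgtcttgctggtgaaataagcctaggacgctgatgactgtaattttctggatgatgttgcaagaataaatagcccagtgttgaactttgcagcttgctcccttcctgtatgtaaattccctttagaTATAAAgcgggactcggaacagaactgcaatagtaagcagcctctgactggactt
Ddit4: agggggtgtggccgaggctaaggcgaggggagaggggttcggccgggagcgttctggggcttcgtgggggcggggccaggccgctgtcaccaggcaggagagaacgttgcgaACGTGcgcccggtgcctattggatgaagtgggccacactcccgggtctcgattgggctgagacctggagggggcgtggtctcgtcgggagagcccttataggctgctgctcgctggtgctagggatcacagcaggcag
Nfkbia: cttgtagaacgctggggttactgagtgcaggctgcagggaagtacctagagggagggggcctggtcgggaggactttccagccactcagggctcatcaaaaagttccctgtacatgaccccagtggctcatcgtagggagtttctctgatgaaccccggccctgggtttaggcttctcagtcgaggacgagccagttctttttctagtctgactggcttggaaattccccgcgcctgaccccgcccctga
Junb: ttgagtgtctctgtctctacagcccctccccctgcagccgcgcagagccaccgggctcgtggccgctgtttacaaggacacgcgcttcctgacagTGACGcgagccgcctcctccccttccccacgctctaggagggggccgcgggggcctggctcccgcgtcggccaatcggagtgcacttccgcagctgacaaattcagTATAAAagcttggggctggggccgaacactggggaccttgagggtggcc

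Counted from the start site, TATAAA began at -55 in Sgk1 and at -49 in Junb, ACGTG at -138 in Ddit4 and TGACG at -155 in Junb. AGAACA, the glucocorticoid response element's half-site, matched none of these windows (0 of 4), and Nfkbia held none of the 4 motifs. Both strands were searched, and no motif contains another, though TGACG and ACGTG can overlap. Among 33469 rat promoter windows of the same length, AGAACA occurred in 17.5%, ACGTG in 16.6%, TGACG in 18.2% and TATAAA in 12.9%. A match describes letters in the window, not a site in use.

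Sgk1 separated the anesthetics most plainly. Its log2 signal in LHb, MHb, Sol and MVe was 10.90, 9.24, 8.87 and 10.41 under O2 and 13.23, 11.16, 9.25 and 12.73 under sevoflurane. In the other array set it was 13.61, 11.32, 9.36 and 12.77 under Intralipos and 12.14, 10.16, 9.05 and 12.38 under propofol. Sevoflurane was above O2 and propofol below Intralipos in each region, so the signs were opposed in 8 of 8 within-region differences. The sevoflurane effect averaged 1.74 ± 0.29, a 3.33-fold higher signal, and the propofol effect -0.83 ± 0.21, a 1.78-fold lower one. Errors written with ± are limma's moderated standard errors over the 4 regions. Region by region, the difference of effects was 3.80 in LHb, 3.08 in MHb, 2.71 in MVe and 0.69 in Sol, and Sol was the smallest for both agents. The mean was 2.57 ± 0.39 (95% interval 1.71 to 3.42, adjusted p = 0.129 by limma, Benjamini-Hochberg over all 15037 genes). In a model of all 16 arrays with treatment and region as terms the adjusted p was 0.0363, and without Sol it was 0.00894 with a difference of 3.20. Without MHb it was 0.898 with a difference of 2.40, and over the alternatives run it lay between 0.00894 and 0.967.

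Ddit4 had the smallest p of all genes for the difference of effects. Its signal in LHb, MHb, Sol and MVe was 10.09, 8.73, 10.64 and 10.61 under O2 and 10.09, 8.99, 11.82 and 11.24 under sevoflurane. Under Intralipos it was 11.63, 10.28, 12.27 and 12.48, and under propofol 9.80, 8.97, 10.59 and 11.26. Propofol was below Intralipos by more than 1 log2 unit in each region, whereas sevoflurane lay level with O2 in LHb and above it in the others. Ddit4 fell after propofol by 1.51 ± 0.17 on the log2 scale, 2.85-fold (limma adjusted p = 0.0242), and was the only gene past the 0.05 threshold there, 1 of 15037 or 0.00665% of all genes. This call was lost when any 1 region was left out, when unnamed probe sets were added to the test, and with a robust trend in the variance. The sevoflurane effect was 0.52 ± 0.20 (adjusted p = 0.862). The difference of effects was 1.83, 1.57, 2.87 and 1.86 in the 4 regions and averaged 2.03 ± 0.26 (95% interval 1.47 to 2.59, adjusted p = 0.0583). In the 16-array model its adjusted p was 0.0163, and over the alternatives run it lay between 0.0163 and 0.967.

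Nfkbia resembled Ddit4. It read 8.21, 7.57, 7.45 and 7.50 under O2, 7.95, 7.73, 7.91 and 8.35 under sevoflurane, 9.82, 9.12, 9.30 and 9.40 under Intralipos and 8.54, 7.48, 8.00 and 8.68 under propofol, in the same order of regions. All 4 propofol arrays were below the lowest Intralipos array, while the O2 and sevoflurane arrays overlapped. The propofol effect was -1.23 ± 0.18 (adjusted p = 0.0961), the sevoflurane effect 0.30 ± 0.19 (0.886), and the difference of effects 1.54 ± 0.23 (95% interval 1.03 to 2.04, adjusted p = 0.129).

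**Figure D1:**
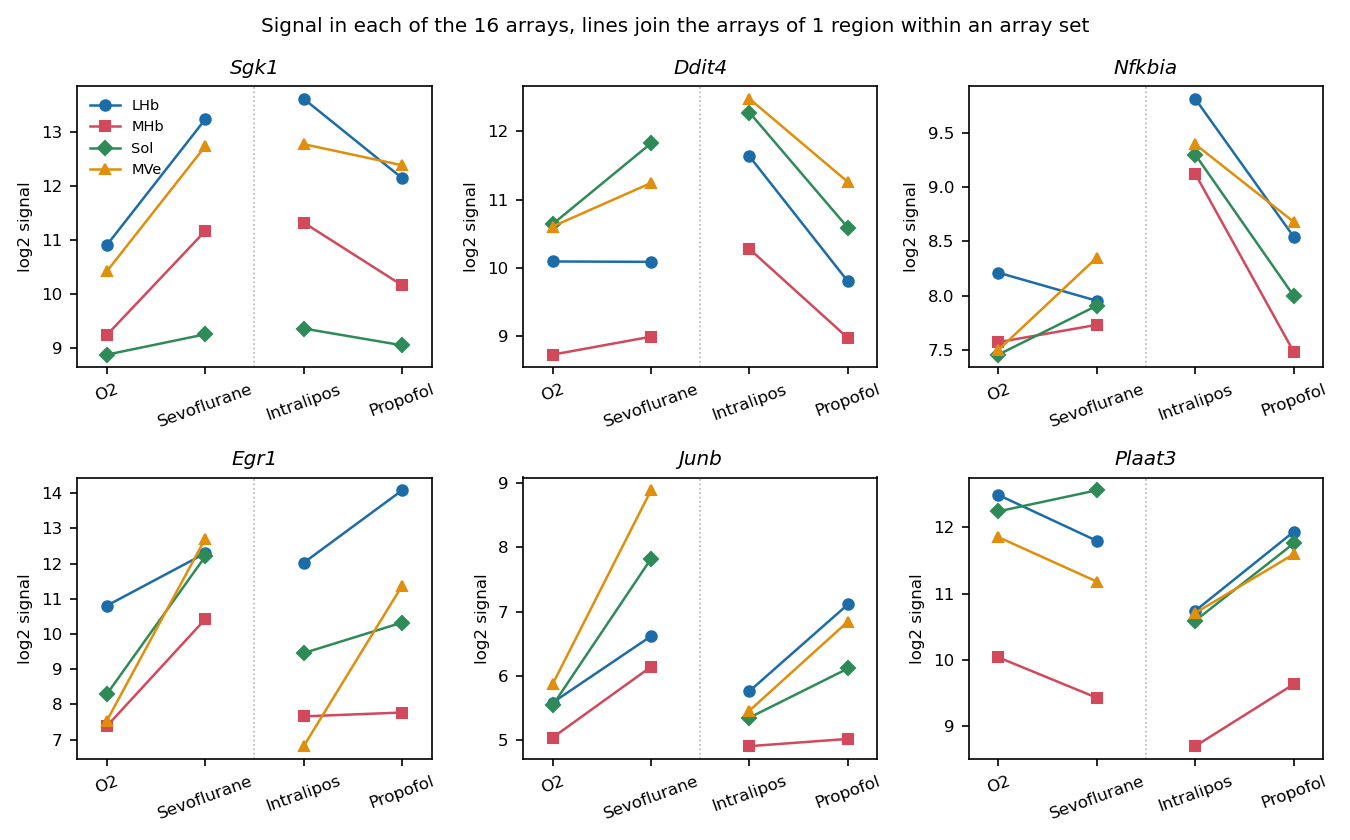
Log2 signal of 6 genes in each of the 16 arrays, 1 point per array, with lines joining the arrays of a region within an array set and a dotted line between the sets. Sgk1 climbs from O2 to sevoflurane and drops from Intralipos to propofol in 4 of 4 regions, Egr1 and Junb climb in both sets, and Plaat3 climbs from Intralipos to propofol in 4 of 4 regions.

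Over all genes, 0 of 15037 (0%) passed limma's test of the difference of effects at an adjusted p under 0.05, against 775 at an unadjusted p under 0.05, of which 429 were positive and 346 negative. The 16-array model called 2 genes, Ddit4 and Sgk1, and the test that treats the 8 within-region effects as unpaired called 1, Ddit4 (adjusted p = 0.0312). Leaving out LHb called 3 genes, Fos, Nr4a1 and Dusp1, at 2.22, 2.40 and 2.33 with adjusted p of 0.0175, 0.0175 and 0.021. The difference was positive in 4 of 4 regions for 985 genes (6.55%) and negative in 4 of 4 for 857 (5.7%).

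After Ddit4, Nfkbia and Sgk1, the smallest p values with a positive difference in 4 of 4 regions belonged to the olfactory receptor gene Or4c110 (1.42 ± 0.25, adjusted p = 0.219) and to Gnat1, which encodes the rod transducin subunit of the retina (1.22 ± 0.22, 0.219). Both are dim here, with means at percentiles 41.4 and 35.1 of all genes, and the propofol effect was negative in 4 of 4 regions for each. On the other side stood Plaat3, a phospholipase and acyltransferase gene. It read 12.48, 10.04, 12.24 and 11.85 under O2, 11.79, 9.43, 12.55 and 11.18 under sevoflurane, 10.74, 8.70, 10.59 and 10.71 under Intralipos and 11.93, 9.64, 11.75 and 11.59 under propofol. Propofol was above Intralipos in each region by 0.88 to 1.19, and sevoflurane was below O2 outside Sol. The difference of effects was -1.45 ± 0.24 (95% interval -1.98 to -0.93, adjusted p = 0.158). Kcnj13, an inward rectifier potassium channel gene strongly expressed in the choroid plexus, was at -1.51 ± 0.25 (0.158), and its other choroid plexus companions are described further on. Fam72a (-1.08 ± 0.25), the growth factor gene Bmp2 (-0.91 ± 0.22) and the amino acid transporter family gene Slc7a4 (-1.01 ± 0.24) followed, with adjusted p of 0.811, 0.899 and 0.899.

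The glucocorticoid-responsive genes lay on the side of sevoflurane. Of 22 measured members (23 listed), 19 had a positive difference of effects, against 49.6% of all genes, and the list median was 0.36 against -0.00 for all genes. The regional medians were all positive (LHb 0.44, MHb 0.32, Sol 0.47, MVe 0.85), and 7 members were positive in 4 of 4 regions, against 6.55% of all genes. In 13 of the 22 the mean sevoflurane effect was above 0 and the mean propofol effect below 0, which held for 23.7% of all genes. None of the members passed the test of the difference after adjustment (0 of 22), and 8 had an unadjusted p under 0.05, all positive. Of all genes, 5.15% had such a p in either direction. Like the other lists, this one was chosen with earlier results of these data known, and it holds Sgk1, Ddit4 and Nfkbia. Its counts are therefore a description and not an independent test. Besides Sgk1, Ddit4 and Nfkbia, the largest difference was that of Dusp1, a phosphatase gene that switches off MAP kinases (1.78 ± 0.36, adjusted p = 0.395), with a sevoflurane effect of 1.49 and a propofol effect of -0.29. The list was not uniform. Fkbp5, a chaperone that limits the receptor and a standard readout of it, was at 0.20 ± 0.25, and Tsc22d3, which encodes the glucocorticoid-induced leucine zipper, at 0.09 ± 0.24. These 2 were named after their values were seen. The medians of the sevoflurane and propofol effects were 0.28 and -0.14. Without MHb the median difference of the list was 0.59.

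Interferon-stimulated genes, the antiviral genes that type I interferon induces, were split in the same direction. Of 19 measured members (20 listed), 18 had a positive difference, against 49.6% of all genes, and the list median was 0.61, the highest of the 27 lists examined. Regionally it was largest in Sol (1.05), followed by LHb (0.72), MHb (0.45) and MVe (0.21). In 16 of 19 members the sevoflurane effect was above 0 and the propofol effect below 0, against 23.7% of all genes, and the medians of these effects were 0.22 and -0.34. The sevoflurane median was not alike across regions: it was 0.79 in Sol (17 of 19 above 0) and 0.17 in MVe (10 of 19), but -0.05 in both LHb and MHb (8 of 19 in each). The propofol median was lowest in the habenula and went from -0.76 (LHb) and -0.62 (MHb) to -0.36 (Sol) and -0.06 (MVe). None passed the test of the difference (0 of 19), and 11 had an unadjusted p under 0.05, against 5.15% of all genes. Positive in 4 of 4 regions were 8, against the 6.55% of all genes. Oas1a, which makes the 2'-5' oligoadenylates that activate RNase L, led the list. Its signal in LHb, MHb, Sol and MVe was 6.83, 5.70, 6.98 and 7.04 under O2 and 6.74, 6.86, 7.86 and 7.46 under sevoflurane, then 6.06, 6.63, 6.54 and 6.29 under Intralipos and 4.72, 4.23, 4.72 and 6.26 under propofol. The propofol arrays were all below the lowest Intralipos array except that of MVe, which lay level with its control. The difference of effects was 1.99 ± 0.41 (95% interval 1.10 to 2.88, adjusted p = 0.395). The related Oasl2 (1.28 ± 0.37), the antiviral GTPase gene Mx2 (1.15 ± 0.31) and Ifi44 (1.14 ± 0.31) had an adjusted p of 0.899. The exception was Ifit1, the only member with a negative difference, named after its values were seen. Microglial markers had a median difference of 0.07, with 0.19, 0.75, -0.33 and 0.10 in LHb, MHb, Sol and MVe, and astrocyte markers of 0.12, positive in 9 of 10. Their part in the interferon result was not tested.

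**Figure D2:**
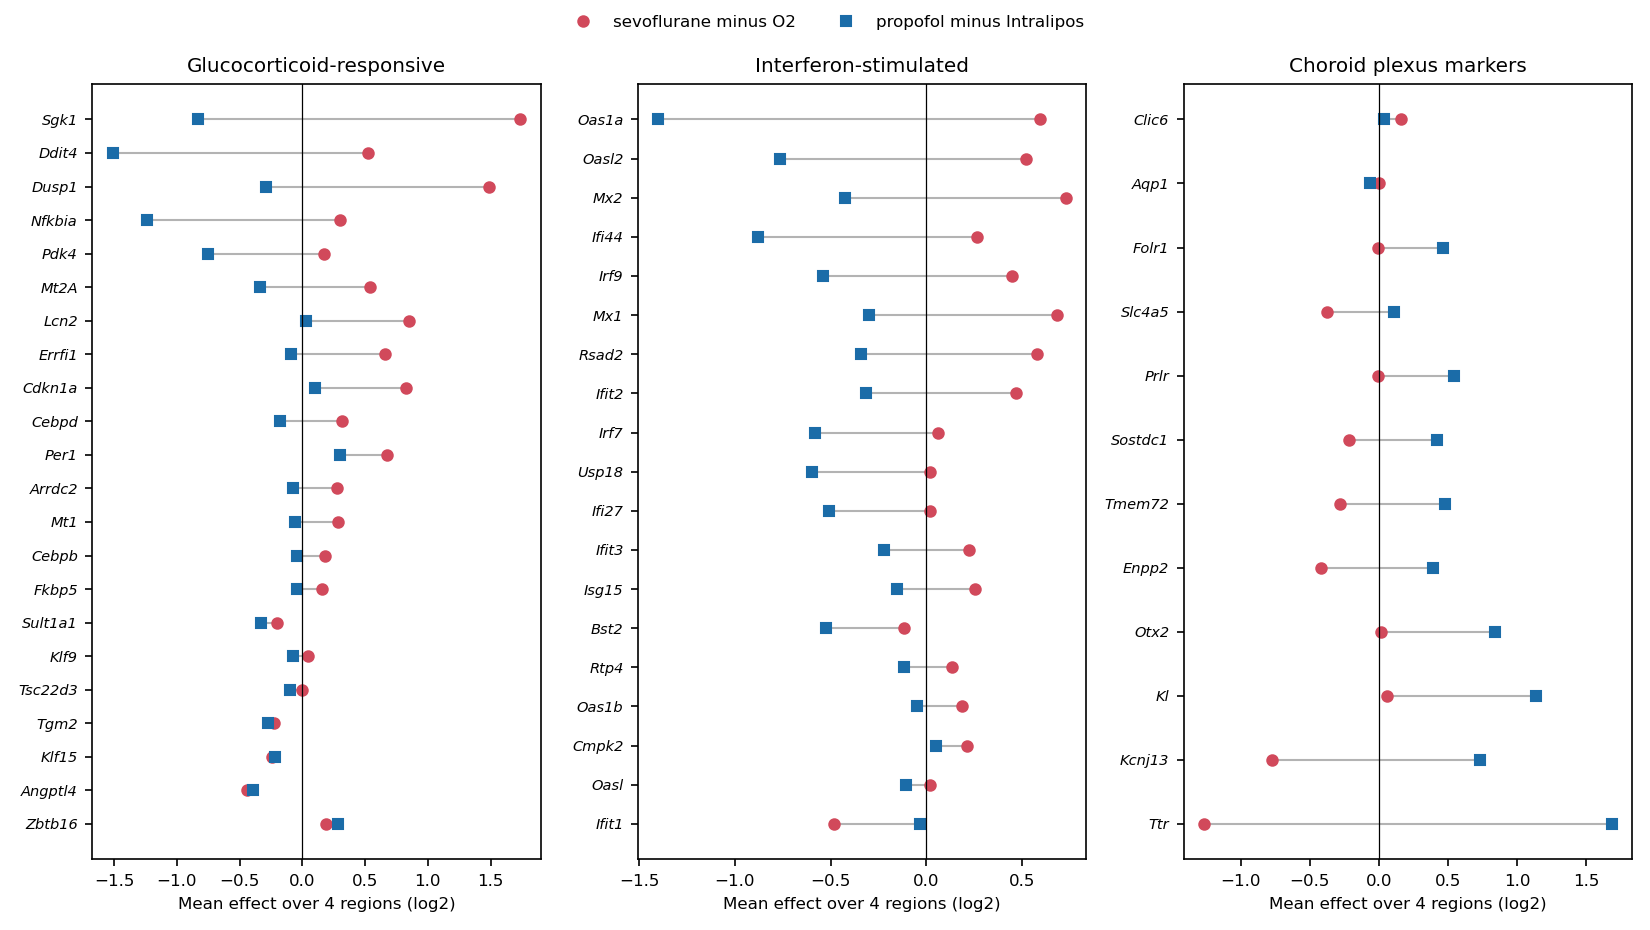
Mean effect over 4 regions for each measured member of 3 gene lists, in log2, with a circle for sevoflurane minus O2 and a square for propofol minus Intralipos joined by a line. The circle lies right of the square in 19 of 22 glucocorticoid-responsive genes and 18 of 19 interferon-stimulated genes, and left of it in 10 of 12 choroid plexus markers.

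The immediate early genes held the largest effects shared by both anesthetics, among them Egr1 and Junb, but as a list they were higher mainly after sevoflurane. The median sevoflurane effect was 0.31, with 40 of 48 measured members (50 listed) above 0 against 52.8% of all genes. The median propofol effect was 0.05, with 28 of 48 above 0 against 52.3% of all genes. In 24 of 48 both mean effects were above 0, against 29.1% of all genes, and in 16 of 48 sevoflurane was above and propofol below its control, against 23.7%. The mean of effects was above 0 in 41 of 48, against 52.8% of all genes. For the mean of effects 0 of 15037 genes (0%) passed limma's test, and 1175 fell under 0.05 before adjustment (723 with a higher and 452 with a lower mean). The signs of the regional means were all positive for 1424 genes (9.47%) and all negative for 1005 (6.68%). The genes with the smallest p on the higher side were Junb and Egr1, transcription factor genes of this class. Without MVe, Egr1, Fos and Nr4a1 passed, at 1.91, 1.30 and 1.22 with adjusted p of 0.00259, 0.0214 and 0.0214, and without MHb Junb did, at 1.64 (0.0493).

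Junb was higher than its control in 8 of 8 differences. It read 5.58, 5.04, 5.54 and 5.87 under O2 and 6.62, 6.14, 7.82 and 8.89 under sevoflurane, with no overlap between these groups, and 5.76, 4.90, 5.35 and 5.46 under Intralipos and 7.11, 5.02, 6.11 and 6.84 under propofol. The propofol effect was close to 0 in MHb (0.11). The mean of effects was 1.38 ± 0.20 (95% interval 0.94 to 1.83, adjusted p = 0.436), and the difference of effects 0.96 ± 0.31 (0.29 to 1.63, 0.902).

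Egr1 had the largest mean of effects among the genes named here. Its signal in LHb, MHb, Sol and MVe was 10.80, 7.38, 8.29 and 7.53 under O2, 12.29, 10.42, 12.20 and 12.71 under sevoflurane, 12.02, 7.66, 9.46 and 6.81 under Intralipos and 14.08, 7.77, 10.32 and 11.37 under propofol. All sevoflurane arrays but that of MHb were above the highest O2 array, and within the other set MHb was nearly level. The sevoflurane effect was 3.40 ± 0.45, 10.6-fold, and the propofol effect 1.90 ± 0.53, 3.73-fold, which came mainly from MVe (4.56) and LHb (2.06), with 0.11 in MHb and 0.87 in Sol. The mean of effects was 2.65 ± 0.41 (95% interval 1.74 to 3.57, adjusted p = 0.436). The difference of effects was 1.50 ± 0.49 (0.44 to 2.57, adjusted p = 0.902), positive in MHb (2.93), Sol (3.05) and MVe (0.61) and negative in LHb (-0.57), and 0.99 when Sol was left out.

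LHb stood apart for Fos and Nr4a1. Fos, a widely used mark of neuronal firing, read 10.13 there under O2 and 10.09 under sevoflurane, and stood at 10.09 under Intralipos and 11.94 under propofol. In MHb, Sol and MVe it went from 6.89, 6.63 and 7.16 under O2 to 9.69, 9.10 and 11.63 under sevoflurane, and from 6.06, 7.23 and 7.27 under Intralipos to 6.55, 7.48 and 9.60 under propofol. Its difference of effects was therefore -1.88 in LHb and 2.14 to 2.30 in the other regions, with a mean of 1.19 ± 0.55 (95% interval -0.00 to 2.39, adjusted p = 0.966). Nr4a1, an activity-induced nuclear receptor gene, had the same order, with -1.02 in LHb and 2.16 to 2.66 elsewhere. The difference between LHb and the other regions was not tested.

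Among the 48 immediate early genes the difference of effects was positive in 38, against 49.6% of all genes. The list median was 0.34, ran from 0.09 in LHb to 0.93 in MVe and was 0.09 when MVe was left out. The list members with the largest difference were Apold1, an early response gene of blood vessels (2.07 ± 0.43), Dusp1 and Ccn1, a matrix protein gene (1.74 ± 0.36), each with an adjusted p of 0.395. Apold1 and Ccn1 had a sevoflurane effect of 1.95 and 1.77 and a propofol effect of -0.12 and 0.02. None of the members passed the test of the difference (0 of 48). The interquartile range of gene values was 5.14 in the O2 array of MVe and 5.51 to 5.54 in the other O2 arrays. Its part in the larger MVe values was not tested.

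**Figure D3:**
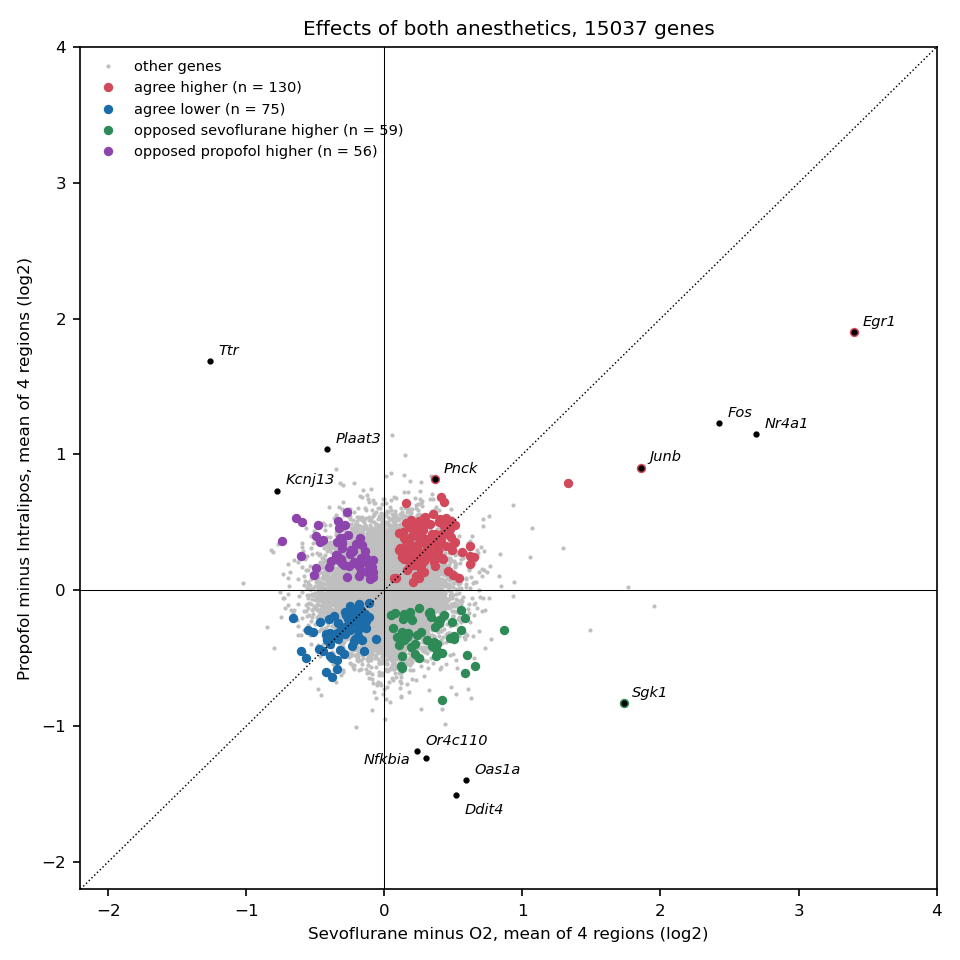
Mean sevoflurane effect against mean propofol effect over 4 regions, in log2, 1 point per gene, with colours for genes whose signs held in 8 of 8 differences and a dotted line where both effects are equal. Egr1, Fos, Nr4a1 and Junb lie at the upper right below the line, Sgk1 lies at the lower right, and Ddit4, Nfkbia and Oas1a lie at the bottom, away from the cloud around 0.

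Across all genes the effects had little in common. Pearson correlations across genes, given as a description because genes are not independent, were -0.04 to 0.047 between the sevoflurane and the propofol effect of the same region and 0.0818 between the 4-region means. They were no higher than 0.154 for different regions. Within an agent they were as low, from -0.012 to 0.093 between regions for sevoflurane and from 0 to 0.079 for propofol. Among the 7519 genes at or above the median level the ranges between agents widened in both directions. They ran from -0.101 to 0.115 in the same region and from -0.092 to 0.204 in different regions, with 0.129 for the 4-region means. Between regions within an agent they ran from -0.005 to 0.205 for sevoflurane and from 0 to 0.169 for propofol. These values share no array for different agents or regions, but all arrays share 1 platform. For the 4-region means of each agent, 0 genes (0%) passed limma's test for sevoflurane, with 856 under 0.05 before adjustment (485 above and 371 below 0), and 1 passed for propofol, with 1050 under 0.05 before adjustment (594 above and 456 below 0). The sevoflurane effect was above 0 in 4 of 4 regions for 1079 genes (7.18%) and below 0 for 973 (6.47%). The propofol effect was above 0 for 1257 (8.36%) and below 0 for 1004 (6.68%).

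Both effects were above 0 in all regions for 130 genes (0.865% of all genes) and below 0 in all regions for 75 (0.499%). The 130 make up 12.05% of the genes higher in 4 of 4 regions after sevoflurane and 10.34% of those after propofol, and the 75 make up 7.71% and 7.47% of the corresponding lower genes. Signs opposed in 8 of 8 differences were found for 59 genes with sevoflurane higher (0.392%) and 56 with propofol higher (0.372%). The 59 are 5.47% of the 1079 and 5.88% of the 1004, and the 56 are 5.76% of the 973 and 4.46% of the 1257. These counts are descriptions of signs with no test, and in the genes higher after both the median size of the 4-region mean effect was 0.28 for sevoflurane and 0.33 for propofol. The split depended on the scaling. Higher and lower genes numbered 130 and 75 as deposited, 105 and 87 after quantile normalization, 75 and 116 after median centring and 70 and 115 after scale normalization, and the opposed genes numbered 59 and 56, 62 and 62, 30 and 76, and 30 and 102. Under these settings the median difference of effects over all genes moved to between -0.048 and -0.003.

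The genes named from each class were those whose smallest effect was largest, which the choice fixes. Prkcq, which encodes protein kinase C theta, was higher by 0.41, 0.27, 0.40 and 0.44 after sevoflurane and by 0.37, 0.34, 0.38 and 0.54 after propofol in LHb, MHb, Sol and MVe. The effects were thus nearly equal, and the difference of effects was -0.03 ± 0.22 (95% interval -0.50 to 0.44). Grin2a, an NMDA glutamate receptor subunit gene, was higher by 0.30, 0.58, 0.38 and 0.79 after sevoflurane and by 0.19, 0.80, 0.32 and 0.62 after propofol. Opcml, a cell adhesion gene of neurons, Clip3, a microtubule-linked trafficking gene, Sema7a, a membrane-bound semaphorin gene, Pnck, a calcium/calmodulin-dependent kinase gene, Lrrfip1 and Oxa1l, a mitochondrial membrane insertase gene, completed the 8. All 8 kept their signs under the quantile, median and scale settings. Pnck also had one of the 5 smallest p values for the mean of effects (0.59 ± 0.10, adjusted p = 0.445), as did Zdhhc22 (0.53 ± 0.10, 0.483). Of the listed genes, Egr1, Junb, Npas4 and Vtn were in this class, the last 2 named after their values were seen. Neuron markers had a median mean of effects of 0.09, with 10 of 15 above 0, and astrocyte markers of -0.07, with 2 of 10 above 0. The astrocyte shift was mainly one after propofol, with 10 of 10 below 0 (median -0.14), against 5 of 10 after sevoflurane (-0.02). The part of neuron and astrocyte markers in the shared changes was not tested.

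Among genes lower after both, Zfp329, a zinc finger gene, was at -0.29, -0.35, -0.40 and -0.62 after sevoflurane and at -0.33, -0.28, -0.35 and -0.43 after propofol. Rbm7, an RNA surveillance factor gene, Tank, an adaptor gene of NF-kB and interferon signalling, Rpl9, a ribosomal protein gene, Fra10ac1, Gmds, a fucose synthesis gene, Rras2, a small GTPase gene, and Creld2, an endoplasmic reticulum stress gene, made up the rest. These 8 kept their signs under the quantile, median and scale settings. The smallest p values for a lower mean of effects were those of Rpa3, a DNA replication protein gene (-0.61 ± 0.11), Hbb, the beta globin gene (-0.53 ± 0.10), Krt15 (-0.52 ± 0.11), Sycp2 (-0.48 ± 0.10) and Ube2t (-0.51 ± 0.11), each with an adjusted p of 0.483. Hbb, a marker of red blood cells, was lower in 8 of 8 differences. Over the blood list as a whole 4 of 9 markers had a mean of effects above 0 and the median was -0.01.

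**Figure D4:**
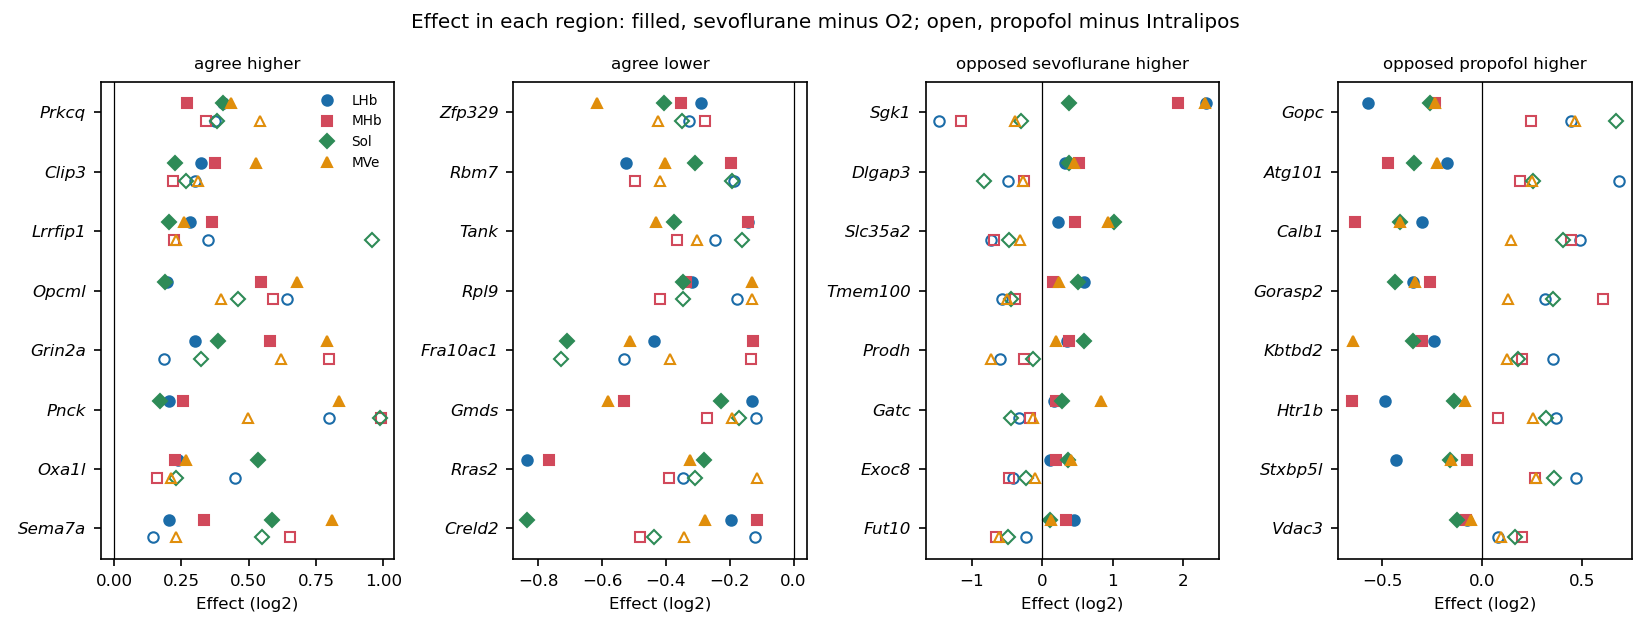
Effect in each region, in log2, for the 8 genes named from each of the 4 sign classes, filled for sevoflurane minus O2 and open for propofol minus Intralipos. In the left panels filled and open symbols lie on the same side of 0, in the right panels on opposite sides, and only Sgk1 has sevoflurane effects above 1.5.

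Opposed signs with sevoflurane higher were led by Sgk1. Dlgap3, a scaffold gene of excitatory synapses, was next. It was higher by 0.33, 0.52, 0.38 and 0.45 after sevoflurane and at -0.49, -0.26, -0.83 and -0.28 after propofol in LHb, MHb, Sol and MVe, so its effects were of like size with turned sign. Slc35a2, the Golgi transporter gene for UDP-galactose, had effects of 0.22, 0.46, 1.02 and 0.93 and of -0.74, -0.69, -0.48 and -0.32, and a difference of 1.22 ± 0.22 (95% interval 0.73 to 1.70, adjusted p = 0.219). Tmem100, Prodh, the proline oxidase gene, Gatc, Exoc8 and Fut10 were the others. Fut10 lost a sign under the quantile, median and scale settings, and Prodh under scale normalization.

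With propofol higher, Calb1, the gene of the calcium buffer calbindin, read 13.34, 13.02, 13.48 and 6.74 under O2, 13.04, 12.38, 13.07 and 6.33 under sevoflurane, 12.79, 12.96, 12.98 and 6.71 under Intralipos and 13.28, 13.41, 13.39 and 6.86 under propofol. It was bright in LHb, MHb and Sol and dim in MVe, and its effects were -0.30 to -0.64 after sevoflurane and 0.14 to 0.49 after propofol. The difference of effects was -0.81 ± 0.22 (95% interval -1.29 to -0.33, adjusted p = 0.899). Htr1b, a serotonin autoreceptor gene, had a difference of -0.60 ± 0.22 (adjusted p = 0.902). Gopc, a Golgi sorting gene, was at -0.78 ± 0.22, Atg101, an autophagy initiation gene, at -0.65 ± 0.22, and Stxbp5l, a syntaxin-binding gene, at -0.55 ± 0.22. Gorasp2, Kbtbd2 and Vdac3 completed the 8, and Vdac3 lost a sign under scale normalization.

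Neuropeptide genes lay on the side of propofol. Of 35 measured members (37 listed), 9 had a positive difference of effects, against 49.6% of all genes, and the median was -0.13, negative in each region and lowest in Sol (-0.33) and MHb (-0.28), with -0.14 in LHb and -0.12 in MVe. In 16 of the 35 (45.7%) the sevoflurane effect was below 0 and the propofol effect above 0, against 23.2% of all genes. None passed the test (0 of 35), and at an unadjusted p under 0.05 there were 5 negative and 1 positive, while 5.15% of all genes reached it in either direction. Somatostatin (Sst, -0.93 ± 0.25), enkephalin (Penk, -0.89 ± 0.37), nociceptin (Pnoc, -0.85 ± 0.26) and cholecystokinin (Cck, -0.81 ± 0.24) had the largest differences, with adjusted p of 0.899, 0.918, 0.899 and 0.899. The median of the list was -0.25 without LHb and -0.20 without MVe.

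Of the receptors and channels on which the agents act, GABA-A receptors and two-pore potassium channels had a list here, and glutamate receptors had none. GABA-A receptor subunit genes had a positive difference in 8 of 16 (median -0.03, a sign that turned under quantile normalization), with the largest difference in Gabre (-0.91 ± 0.30, adjusted p = 0.902). Their regional medians had opposite signs: 0.30 in LHb (14 of 16 positive), -0.37 in MHb (5), -0.20 in Sol (6) and -0.07 in MVe (5). Of the 13 measured genes of two-pore potassium channels, through which volatile agents hyperpolarize neurons, 3 had a positive difference, with a median of -0.16 that was -0.39 in MVe and 0.02 to 0.05 in the other regions, and 0.00802 when MVe was left out. The GABA-A median was -0.18 without LHb, 0.06 without Sol and 0.05 without MVe. For both lists 0 members passed the test. In 10 of 15 clock genes both mean effects were above 0, against 29.1% of all genes, among them the period gene Per1 (0.67 ± 0.16 after sevoflurane, adjusted p = 0.862, and 0.30 ± 0.18 after propofol, 0.800).

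Markers of the choroid plexus and of oligodendrocytes lay on the side of propofol. Ependyma, mural and meningeal, and endothelial markers had median differences of 0.22 (3 of 4 positive), -0.04 (6 of 13) and 0.04 (5 of 9). For the choroid plexus, 2 of 12 markers had a positive difference of effects, and the list median was -0.70, lowest in Sol (-1.60), then MHb (-0.60), MVe (-0.56) and LHb (-0.08), and -0.45 when Sol was left out. Ttr, the transthyretin gene that dominates choroid plexus RNA, read 7.18 in the Intralipos array and 13.28 in the propofol array of Sol, an effect of 6.10, and 15.10 and 12.18 in the O2 and sevoflurane arrays. By region its difference of effects was -9.01 in Sol and -0.83, -1.72 and -0.24 in LHb, MHb and MVe. The mean was -2.95 ± 1.03 (adjusted p = 0.902), followed by Kcnj13, the gene of the anti-aging hormone Klotho (Kl, -1.08 ± 0.34, 0.899) and the homeobox gene Otx2 (-0.83 ± 0.28, 0.902). Oligodendrocyte markers had a positive difference in 1 of 13 and a median of -0.32, which was -0.62 in LHb and -0.88 in MHb but 0.0156 in Sol and 0.30 in MVe, and -0.55 when MVe was left out. The myelin genes Ugt8 (-0.84 ± 0.33) and Mag (-0.54 ± 0.27) were among the largest. For the choroid plexus and oligodendrocyte lists 0 members passed the test, and the part of such tissue in the other results was not tested.

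The signs of the glucocorticoid, interferon, immediate early, neuropeptide, choroid plexus and oligodendrocyte medians held under the quantile, median and scale settings. The remaining stress lists had medians from -0.03 to 0.18. The nutrient genes controlled by FoxO factors were at 0.18 (11 of 17 positive), ER stress and ATF4 genes at 0.09 (10 of 15), NF-kB feedback genes at 0.04 (8 of 12) and hypoxia genes at -0.03 (7 of 15). Ddit4 is a member of the FoxO, ER stress and hypoxia lists as well as of the glucocorticoid list and had the largest difference in each of those 3. Cholesterol synthesis genes were at 0.01 (7 of 12), fatty acid genes controlled by PPAR at 0.00 (6 of 12) and heat shock genes at 0.02 (5 of 10), and the sign of these 3 medians turned under at least 1 other scaling.

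**Figure D5:**
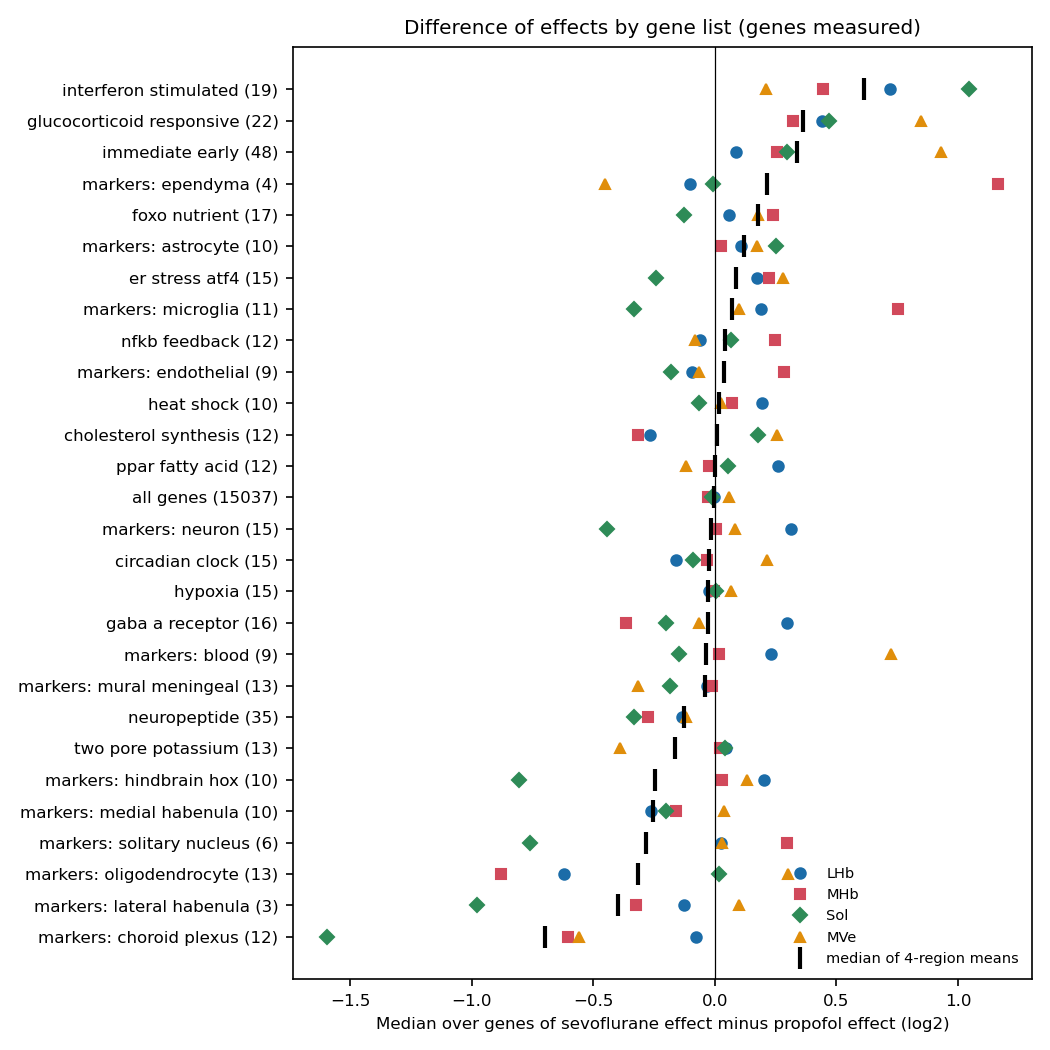
Median over the measured genes of each list of the difference of effects, in log2, with a symbol for each region and a bar for the median of the 4-region means, and the number of measured genes in brackets. The glucocorticoid-responsive, interferon-stimulated and immediate early lists lie right of 0 in 4 of 4 regions, and the neuropeptide and choroid plexus lists lie left of 0 in 4 of 4.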

How the data were processed

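Tissue cut by laser from 4 brain regions of rats under 4 treatments was measured on 16 Affymetrix arrays. The deposited values are log2 signals that the authors made in Affymetrix Expression Console (version 1.3.0), a program named in the submitters' processing notes. The log2 scale was taken from the values (2.47 to 19.93), and no source used here gives the summarization method or genome build. Of 24834 probe sets 94 were controls. The 15049 with 1 gene symbol in the platform annotation gave 15037 genes, with the brightest probe set kept for the 10 genes that had several. No dim genes were removed. Array number limits the precision.

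Effects were taken within each region, and limma (version 3.58.1, under R 4.3.3; an intercept fitted with lmFit, then eBayes, two-sided, 3 residual degrees of freedom plus the prior) was fitted over the 4 regions to all genes, with Benjamini-Hochberg adjustment and a threshold of 0.05. The spread measured is that between regions, not between rats. The fit was tested on simulated data. Alternatives were other scalings (quantile, median, scale), dim genes left out, all probe sets, a robust trend, unpaired effects, a 16-array model (9 residual degrees of freedom), and each region left out. The rule named, for the difference and the mean, the 5 smallest p with 1 sign in 4 of 4 regions where fewer than 5 genes passed, 8 genes per sign class at or above the median level (6.93), and up to 4 members per list. It always named Sgk1, Ddit4, Nfkbia, Fos, Egr1, Junb and Nr4a1. The comparison, its genes, the 27 lists and the tests were chosen with earlier results of these data known. Tables and figures used pandas 2.3.3, numpy 2.4.6 and matplotlib 3.10.9 in Python 3.11.15.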

Additional observations from a re-analysis of the deposited data

Results flagged for a closer look

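In each of 78 genes and list medians described, the 4 regional differences of effects were examined for 1 region far from the others by Dixon's criterion at its 95% critical value, which chance meets in about 1 in 20. It was met by 4. Fos stood at -1.88 in LHb, with a gap of 0.962 of the whole range, and Nr4a1 at -1.02 in LHb, with 0.862. The two-pore potassium channel median stood at -0.39 in MVe (0.941) and the Hox median at -0.81 in Sol (0.831).

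For 3 of the 27 lists the median difference of effects had 1 sign in both habenular regions and the other sign in both hindbrain regions. This contrast was not tested, some of the medians lay near 0, and chance alone can split signs in this way. Given in the order LHb, MHb, Sol, MVe, these medians were -0.0234, -0.00459, 0.00612 and 0.0675 for hypoxia genes, -0.27, -0.32, 0.18 and 0.26 for cholesterol synthesis genes and -0.62, -0.88, 0.0156 and 0.30 for oligodendrocyte markers.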

How the results depend on the processing

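With limma, the count of genes past an adjusted p of 0.05 for the difference of effects, 0 as reported, was 2 in the 16-array model, 1 with unpaired effects and 0 to 3 with a region left out. For the mean of effects it was 0 to 3 and for the sevoflurane effect 0 to 2 with a region left out. The propofol count of 1 became 0 with all probe sets, 0 with a robust trend, 3 in the 16-array model and 0 to 0 with a region left out; the cause was not tested. Of 690 settings run on 58 values of named genes, 680 kept their direction and side of the threshold, 10 newly passed it and none reversed (0). Much of this count was fixed in advance. Most of these genes were named for having the same sign in every region, so leaving out a region could not reverse them. Leaving out dim genes, all probe sets, the robust trend, the 16-array model and unpaired effects do not alter a gene's estimate. None of the 58 values passed as reported, so keeping the side of the threshold meant still not passing. Genes higher after both numbered 75 with median centring, 70 with scale normalization and 324 to 396 over 3 regions. Genes lower after both numbered 116, 115 and 243 to 274 in those settings, 42 without dim genes and 146 with all probe sets. Opposed genes with sevoflurane higher numbered 30, 30 and 239 to 244, and 104 with all probe sets. Opposed genes with propofol higher numbered 102 with scale normalization, 31 without dim genes, 93 with all probe sets and 194 to 326 over 3 regions. Fewer regions or more features raise such counts by construction; for scaling the cause was not tested. Of the 130, 75, 59 and 56 genes of these classes, 71, 70, 25 and 48 were in the same class after median centring. The median of the glucocorticoid list was 0.59 without MHb. With 1 array per region and treatment, the spread between rats cannot be separated from that between regions, and dim genes have little signal over background.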

Other observations

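In the neuropeptide list, neuropeptide Y (Npy) had a difference of effects of 0.80 ± 0.29 (limma adjusted p = 0.902), with 0.29 after sevoflurane and -0.51 after propofol, against the negative values of Sst, Penk, Pnoc and Cck. In the clock list, Cry1 (-0.68 ± 0.26, adjusted p = 0.902) and Bmal1 (-0.66 ± 0.28, 0.930) were lower after sevoflurane and higher after propofol, while Nfil3 (0.38 ± 0.29, 0.988) and Per1 (0.37 ± 0.25, 0.982) had positive differences. In the immediate early list, Gadd45g, a stress-inducible growth arrest gene, had a difference of 1.42 ± 0.26 (0.219), made up of 0.44 after sevoflurane and -0.98 after propofol. In the astrocyte list, the gap junction gene Gjb6 stood at 0.84 ± 0.27 (0.899), with opposed signs in 8 of 8 differences. Npy, Gadd45g and the genes named here beyond the largest 4 of a list were chosen after their values were seen.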
